A study of Solanum lycopersicum with 8 samples.

Results

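The genes described here are neighbours along the tomato (Solanum lycopersicum) chromosomes that were each read at least 16 times more often in gland cells than in leaf. They were chosen by that ratio: each count was divided by its library's gene total and multiplied by 1000000 (CPM), and a gene was marked when its mean over the trichome libraries lay from 1 to under 500 CPM and (trichome mean + 0.1)/(leaf mean + 0.1) reached 16. Marked genes whose IDs follow each other on 1 chromosome, with no other ID between them, form a run. A stretch of terpene genes and a stretch of polyphenol oxidase genes, both on chromosome 8, were left out. Of 33838 genes with IDs of the 12 chromosomes (34725 in all), 554 were marked, and 137 of these lay in 58 runs. The tissue difference of these genes is how they were found and is not a result, so it is given as a description, with no test.

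The libraries hold messenger RNA of cultivar M82 from gland cells of type VI trichomes and from leaves whose trichomes had been scraped off, with 4 libraries per tissue from 4 collections. By genotype label, leaf RNA is from the af mutant and gland RNA from complemented line #4. The protocols state instead that the scraped leaves are of the plants that gave the glands, so the genotype labels and the protocols conflict, and if the labels hold, tissue and genotype cannot be told apart. All plants were grown for 5 weeks at 28 °C under 250 µE of light. In such bulk samples, fewer cells of a type and less RNA per cell cannot be told apart.

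Type VI trichomes are leaf hairs topped by a small head of secretory cells, which make terpenes and flavonoids. In plants, genes that lie side by side and work in the same cells are often tandem copies, which arise when a gene is duplicated next to itself. Less often they are unrelated enzymes of 1 pathway that sit together as a biosynthetic gene cluster. The files pair no ID with a name or a function, so which of these kinds a run belongs to is not given here. Only 4 of the 137 members carry a name below, from published ID assignments, and each is introduced as "listed as". For these 4, the chromosome and the rank among its genes were compared with the symbol's place in the reference table (RefSeq assembly SLM_r2.1), and the ranks lay within 1 percentage point of each other.

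Counts assigned to genes summed to between 19209754 and 34941715 in a leaf library and to between 24596280 and 26514416 in a gland library. Where no read was counted, a level of up to 3 counts is allowed, or 0.0859 to 0.156 CPM for leaf libraries and 0.113 to 0.122 for gland libraries. Such limits cover counting error only, because the reads carry no molecular identifiers and may repeat 1 molecule. Of 6 listed gland markers 5 are in the files, and their summed level lay between 52.3 and 129 CPM in leaf and between 9292 and 12713 in trichome. Another 6 markers of green leaf cells summed to 23647 to 28826 CPM in leaf and 1276 to 1399 in trichome. A list of 5 acylsugar genes, which mark the tip cells of other glandular hairs, summed to 82.6 to 138 CPM in trichome and 0.601 to 15.5 in leaf. Whether cells of other hairs contribute to the members' levels was not tested.

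Runs lay on all 12 chromosomes. Chromosomes 1 and 11 held the most members, 19 each in 9 and 7 runs, and chromosome 8 the fewest, 4 in 1 run. Marked genes made up 1.37% (chromosome 10) to 1.84% (chromosome 11) of a chromosome's genes. There were 45 runs of 2, 8 runs of 3, 4 runs of 4 and 1 run of 7. Over the 12 chromosomes, 1.64% of genes were marked. Of the 552 IDs that come right after a marked gene on its chromosome, 79 (14.3%) were marked themselves. In the annotation's numbering 76 of the 79 steps within runs were of 10, the usual spacing, and the largest was 30. Neighbours can be copies similar enough to share reads, and without strand in the counting overlapping genes cannot be told apart, so how reads split within a run is uncertain.

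**Figure D1:**
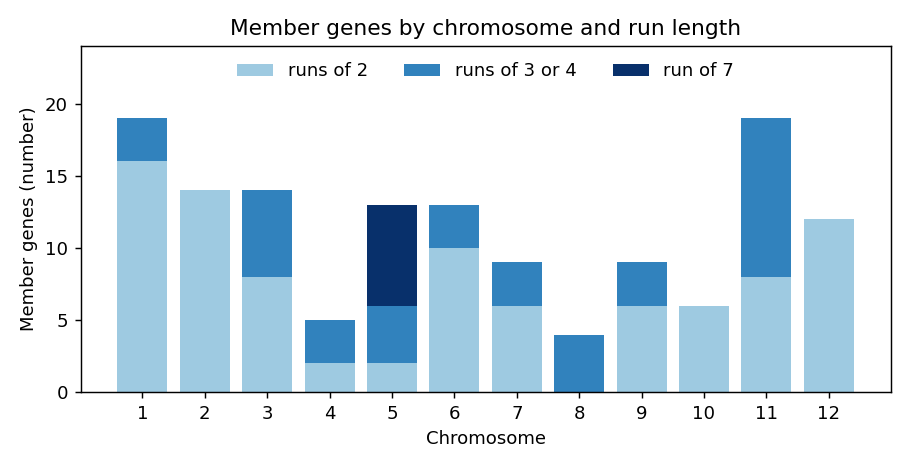
Bars give the number of member genes (y axis) on each of the 12 chromosomes (x axis), shaded by the length of the run they lie in. Chromosomes 1 and 11 hold 19 members each, and the run of 7 lies on chromosome 5.

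Trichome means of the members ran from 1.65 to 467 CPM with a median of 26.9, and leaf means from 0 to 23.8 with a median of 0.405. A CPM value is not divided by gene length, so a CPM difference between genes mixes length with level. Levels of different genes are therefore not compared, apart from ranking pairs by summed CPM and splitting neighbouring pairs by their CPM. The ratio had a median of 37.9 and a highest value of 301. At the limit, Solyc12g008670 (16.002), Solyc05g046170 (16.1), Solyc11g063530 (16.2) and Solyc12g055890 (16.4) were just inside. Just outside were 4 genes next to a marked gene, namely Solyc10g007070 (ratio 15.9), Solyc02g088250 (15.6), Solyc03g120050 (15.4) and Solyc01g097940 (14.8). The lowest trichome library lay above the highest leaf library for 137 of 137 members, which the choice of genes all but fixes; 23.6% of all 20409 tested genes did the same. In edgeR's quasi-likelihood test, 134 members had enough counts to be tested, and 33.9% of all tested genes were called higher in trichome. Their log2 fold changes, which rest on the contrast that chose them, ran from 4.32 to 10.60 with a median of 6.28, against -0.09 over all tested genes.

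**Figure D2:**
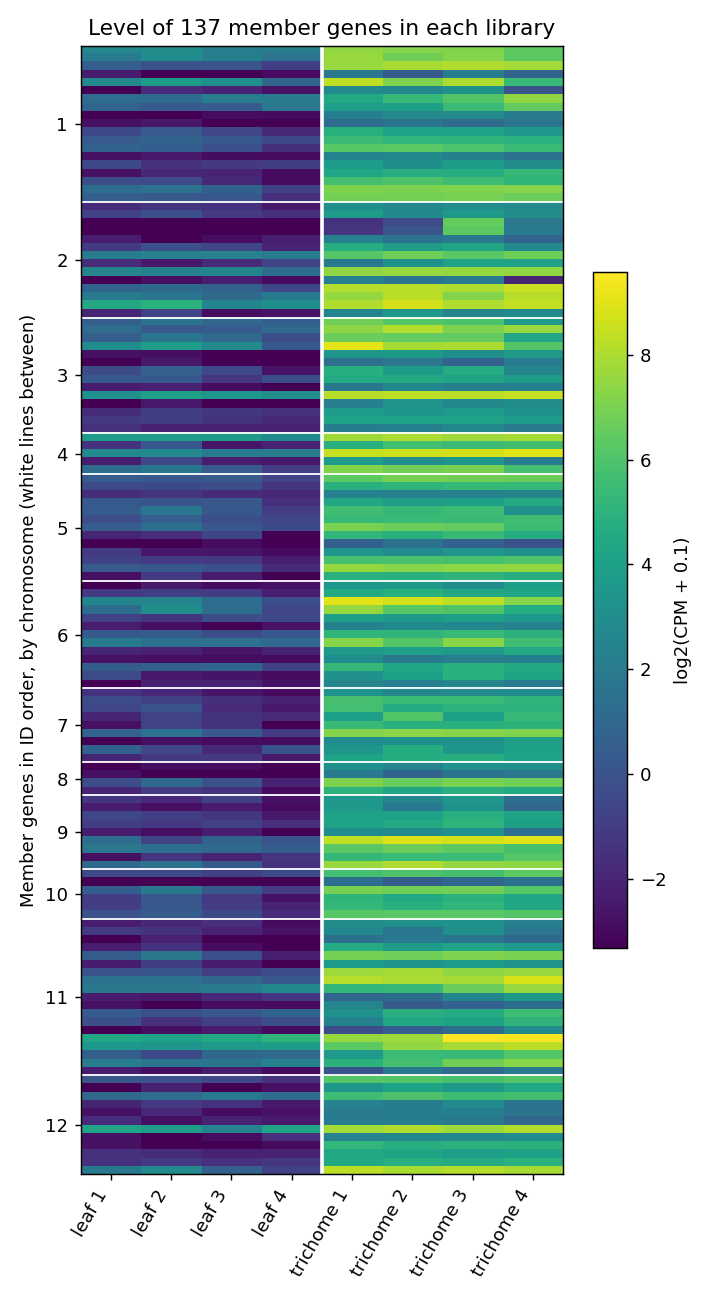
Each row is 1 of the 137 member genes in ID order, with chromosomes separated by white lines, each column is a library, and colour gives log2(CPM + 0.1). Leaf libraries are dark and trichome libraries bright by the choice of genes; rows that change colour among the 4 trichome libraries are described in the text, such as the pair on chromosome 2 that is bright in trichome library 3.

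Whether the choice carries over to libraries it did not use was examined by leaving out a collection, choosing runs from the other 3 and reading the ratio in the one left out. Without collection 1, 138 genes lay in runs, and 108 of them (78.3%) had a ratio of at least 16 in that collection. For collections 2, 3 and 4 the numbers were 111 of 148 (75.0%), 121 of 134 (90.3%) and 117 of 135 (86.7%). The median ratio in the left-out collection was 44.4, 27.5, 46.7 and 46.0 in turn. Over all genes in the same range of trichome level, 3.17% to 4.03% reached 16 in 1 collection. Those genes were not picked on the ratio. Marked genes outside runs were not examined this way, so whether the higher shares are particular to runs was not tested. Among the genes chosen in runs the lowest value was 0.787, for Solyc04g074400 in collection 4. Within the full set, 85 of the 137 members reached 16 in each of the 4 collections, and 135 reached 4 in each. The exceptions to the latter were Solyc02g083730, with a ratio of 1.96 in its lowest collection, and Solyc02g067630, with 3.65.

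**Figure D3:**
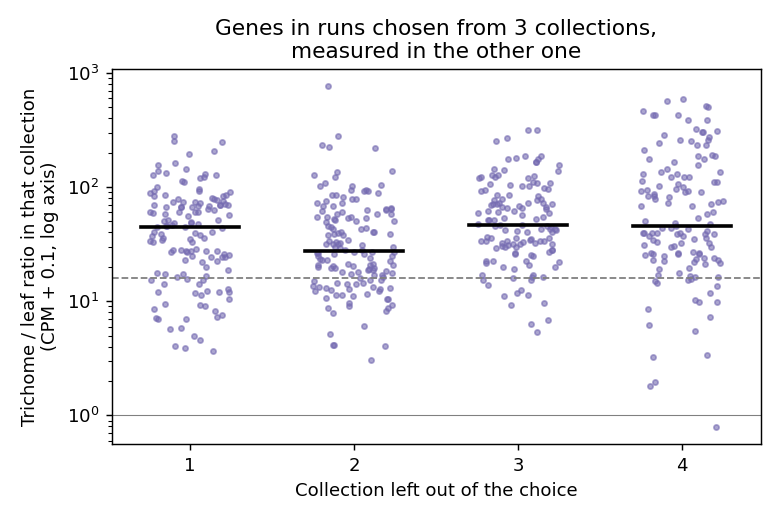
Each point is a gene in a run chosen from 3 collections, plotted by its trichome to leaf ratio (CPM + 0.1, log axis) in the collection that was left out (x axis); black bars are medians and the dashed line is the ratio of 16. Medians lay between 27.5 and 46.7, and 75.0% to 90.3% of points reached the dashed line.

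The longest run held 7 genes of chromosome 5, Solyc05g046150 to Solyc05g046210. Without leaf library 1, 2 or 4, trichome library 2 or collection 2 it shrank to 4, Solyc05g046180 to Solyc05g046210. Solyc05g046200 had 1.20, 1.08, 0.783 and 0.200 CPM in leaf libraries 1 to 4 and 186.9, 151.9, 166.7 and 179.0 CPM in trichome libraries 1 to 4. Its trichome coefficient of variation was 8.94% (16.9% with TMM factors), and leaf library 4 was the lowest of the leaf libraries. Its log2 fold change was 8.02 (SE 0.46). Solyc05g046190 had 0.469, 0.390, 0.340 and 0.114 CPM in leaf and 56.5, 59.5, 56.6 and 66.1 in trichome, a log2 fold change of 7.81 (SE 0.34). Again leaf library 4 was lowest, and the trichome coefficient of variation was 7.54% (21.1% with TMM factors). Solyc05g046150 had 1.25, 2.43, 1.02 and 0.658 CPM in leaf and 125.6, 102.5, 88.4 and 45.8 in trichome. Here trichome library 4 was the lowest, so neighbours of 1 run did not keep a fixed proportion to each other.

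The other members of that run had trichome means of 33.0 ± 7.46 CPM for Solyc05g046160, 9.20 ± 1.41 for Solyc05g046180 and 29.4 ± 3.06 for Solyc05g046210 (SD, n = 4 each). Solyc05g046170 had 1.65 ± 0.841 CPM in trichome and a single count in all leaf libraries together. That makes a pooled ratio of 173.7 with a counting interval of 31.2 to 6859 (exact Poisson, 95%). Because it sits near the limits of the choice, the run depends on it: without it the 7 genes split into a pair and a run of 4. Right before the run lies Solyc05g046140, which had 855 CPM in trichome against 5.08 in leaf and was left out of the set by the upper limit of 500 CPM. Counting it, 8 neighbouring genes reached the ratio of 16. A pair of members, Solyc05g046110 and Solyc05g046120, lies before it, separated by Solyc05g046130 with a ratio of 6.62.

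**Figure D4:**
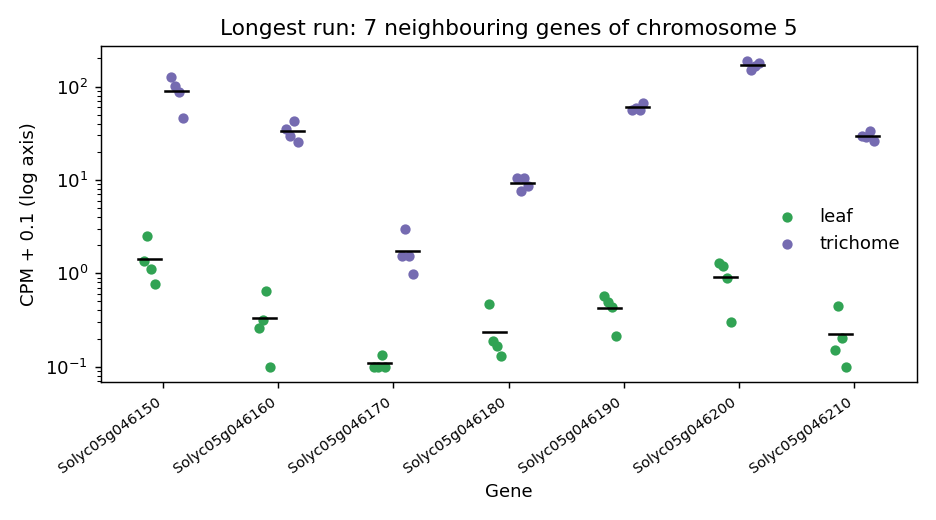
CPM + 0.1 on a log axis for each of the 7 genes of the longest run, with the 4 leaf libraries in green, the 4 trichome libraries in purple and means as black bars. In each gene the trichome libraries lie above the leaf libraries and the trichome libraries are farthest apart for Solyc05g046170, where the highest is 3.25 times the lowest in CPM, and then for Solyc05g046150, at 2.74 times.

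The same upper limit ended or split other runs. Among 115 IDs directly beside a run, 8 reached the ratio of 16 but lay above 500 CPM, 57 lay under 1 CPM in trichome and 50 had a ratio under 16. Of the last, 18 had a ratio of at least 2 and 17 a ratio under 1. Without the upper limit 8 runs became longer. On chromosome 3 a pair and a run of 3 joined through Solyc03g122140 (7.93 CPM in leaf, 1183 in trichome) into 6 neighbours, Solyc03g122120 to Solyc03g122170. On chromosome 7 the run Solyc07g054870 to Solyc07g054890 gained Solyc07g054900 and Solyc07g054910 and held 5 genes. Beside the pair Solyc01g088410 and Solyc01g088420 lay Solyc01g088430, with 32.9 CPM in leaf and 4907 in trichome. Of the flanking genes 69 were tested, and 37 were called higher and 18 lower in trichome by edgeR (33.9% and 38.5% of all tested genes); they were selected as unmarked on this contrast, so nothing is read from these counts.

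Runs of 4 lay on chromosomes 5, 8 and 11, and 8 of the 13 runs of 3 or more had 3 members. On chromosome 8, Solyc08g006360 to Solyc08g006390 had trichome means of 7.97 ± 1.72, 3.02 ± 0.980, 115.3 ± 17.8 and 26.1 ± 5.60 CPM (SD, n = 4 each). All 4 were lowest in trichome library 2. Solyc08g006390 had 32.5, 19.7, 28.5 and 23.7 CPM in trichome libraries 1 to 4 and 0.0286 to 0.347 CPM in leaf, a log2 fold change of 7.28 (SE 0.41). For Solyc08g006360 only 2 counts were seen in all leaf libraries, a pooled ratio of 426.9 with a counting interval of 118.2 to 3525. With 1 leaf count, Solyc08g006370 had a pooled ratio of 324.7 and an interval of 58.3 to 12825.

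On chromosome 11, Solyc11g007460 to Solyc11g007490 had trichome means of 2.88 ± 0.736, 17.3 ± 5.69, 121.0 ± 12.4 and 12.05 ± 2.03 CPM (SD, n = 4 each). Their leaf values were all highest in leaf library 2, where Solyc11g007480 had 3.34 CPM against 0.114 to 1.30 in the other leaf libraries. Without that library the log2 fold change of Solyc11g007480 was 7.64 in place of 6.80. In leaf library 2 the summed gland markers were also highest (129 CPM against 52.3 to 91.7 in the other leaf libraries). So were the summed acylsugar markers (15.5 against 0.601 to 3.20). Their part in these leaf values was not tested.

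Solyc05g032680 to Solyc05g032710 is the run of 4 on chromosome 5, and its trichome coefficients of variation were 7.87% to 19.6% by gene totals and 20.7% to 30.2% with TMM factors. Solyc05g032680 had 80.9, 120.6, 112.2 and 102.6 CPM in trichome and 1.25, 1.08, 1.12 and 0.515 in leaf, a log2 fold change of 6.98 (SE 0.30). Solyc05g032700 had 5.23, 4.88, 4.90 and 5.76 CPM in trichome and 0.172 to 0.303 in leaf, a log2 fold change of 4.78 (SE 0.28). In both genes the tissues did not overlap.

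Members listed as terpene synthases, enzymes that turn prenyl diphosphates into volatile terpenes, lay in 2 runs. A gene listed as TPS3 (Solyc01g105850) had 2.29, 2.95, 1.53 and 0.487 CPM in leaf and 137.6, 129.8, 140.3 and 150.5 in trichome, a log2 fold change of 6.57 (SE 0.46). Its coefficient of variation over the trichome libraries was 6.13% by gene totals and 18.2% with TMM factors. Its neighbours were Solyc01g105840, with 55.2, 62.9, 47.1 and 35.2 CPM in trichome (log2 7.32, SE 0.59), and Solyc01g105860, with 114.0, 112.7, 121.1 and 99.0 (log2 7.19, SE 0.42). The run ended at Solyc01g105870, which had no leaf counts and 0.0959 CPM in trichome. Further along the same chromosome lies MTS1 (Solyc01g105890), a linalool synthase, which was not a member at a ratio of 10.6. Leaf library 4, at 62.6 CPM against 13.4 to 21.7 in the other leaf libraries, holds that ratio down, and without it MTS1 (Solyc01g105890) had a ratio of 17.5, which marks it, though in no run. A gene listed as TPS16 (Solyc07g008690) had 0.677, 0.477, 0.238 and 0.143 CPM in leaf and 54.6, 42.0, 43.3 and 33.0 in trichome, a log2 fold change of 7.12 (SE 0.37). Its neighbour Solyc07g008680 had 9.93, 6.14, 6.71 and 6.82 CPM in trichome and 0.0286 to 0.260 in leaf (log2 6.13, SE 0.48). In both genes trichome library 1 was highest and leaf library 4 lowest.

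Of the terpene genes fixed as a list outside the runs, 4 of 4 were called higher in trichome, and of the acylsugar genes 7 of 7 (edgeR, 33.9% of all tested genes); none was called lower. The 4 terpene genes are also gland markers used above. Of them TPS12, PHS1 (Solyc08g005670) and NDPS1 (Solyc08g005680) had ratios of 151 to 439 and trichome means above 500 CPM. ASAT3 (ratio 20.2) and IPMS3 (119) were themselves marked, in no run. Nothing about the runs is read from these calls. Of the 7 acylsugar genes 5 were called without collection 1 or 3, and 6 without collection 2 or without leaf library 1, leaf library 3 or trichome library 2. A gene listed as ASAT4 (Solyc01g105580), an acyltransferase, had an adjusted p of 0.0225 in edgeR's test and lost its call without leaf library 1 (0.0605), leaf library 3 (0.0534) or trichome library 2 (0.0588). Solyc07g043630, listed as AACS1, and Solyc07g043680, listed as AECH1, supply acyl chains for acylsugars, lie 5 ID steps apart on chromosome 7 and formed no run with all libraries. Among the 6 IDs from one to the other, ratios ran from 6.15 to 35.7, and the 2 marked genes, Solyc07g043650 and Solyc07g043670, were separated by Solyc07g043660 with a ratio of 14.1. That rests on single libraries: without leaf library 2, Solyc07g043650 to Solyc07g043680 formed a run of 4, with AECH1 (Solyc07g043680) at a ratio of 18.4 in place of 9.01. Without trichome library 4, Solyc07g043650 to Solyc07g043670 formed a run of 3. In leaf library 2 AECH1 had 3.08 CPM, against 0.114 to 0.749 in the other leaf libraries.

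Members listed as TAPG1 (Solyc02g067630) and TAPG2 (Solyc02g067640) owed their place to 1 library. TAPG genes encode polygalacturonases, enzymes that loosen pectin in the cell wall and are known from abscission zones, where leaves and flowers are shed. TAPG1 had 7, 17, 2452 and 89 counts in trichome libraries 1 to 4 (0.265, 0.691, 92.5 and 3.39 CPM) and no count in any leaf library. TAPG2 had 8, 24, 2149 and 101 counts there (0.303, 0.976, 81.0 and 3.85 CPM) and none in leaf. Trichome library 3 thus held 95.5% and 94.0% of their summed trichome CPM. Against a floor of 3 counts over all leaf libraries together, TAPG1 was at least 860-fold and TAPG2 at least 765.5-fold higher in trichome; without trichome library 3 these limits were 51.5-fold and 60.7-fold. The ratio of TAPG1 was then 15.5, under the limit, and the run was gone. Over 90% of the summed trichome CPM came from 1 library in 2 of 137 members and in 22 of 16037 genes at 1 to 500 CPM in trichome (0.137%). Neither gene had enough counts in enough libraries to enter edgeR's test.

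The spread among trichome libraries was not used by the choice other than through the mean. The median coefficient of variation over the 4 trichome libraries was 26.7% for members and 20.4% for all 16037 genes at 1 to 500 CPM. For the 416 marked genes outside the runs and outside the stretches left out it was 27.1%, so this spread is not particular to runs. The members ranged from 4.95% for Solyc10g084730 to 188.1% for TAPG1, and in 27 of 137 the highest trichome library was at least 4 times the lowest. Neighbours within runs were then compared by the library in which each was highest. In 32 of 79 neighbouring member pairs (40.5%) it was the same library, against 31.3% of 9597 neighbouring pairs of all genes in that range. Scaled by TMM factors, which adjust for composition, these shares were 54.4% and 30.3%, and by RLE factors 62.0% and 34.0%. For the lowest library the shares were 54.4% and 47.6% by gene totals and 44.3% and 30.96% by TMM factors. The difference in level pattern was taken as the mean absolute log2 deviation between neighbours. Its median over pairs, computed by gene totals, was nearly the same, 0.295 for member pairs and 0.305 for all pairs. A library's factor shifts both neighbours alike, so apart from the added 0.1 CPM this measure does not depend on the scaling. By CPM, which mixes gene length with level, 20 member pairs differed at least 10-fold. Of these, 10 shared the highest library with TMM factors, and of the other 59 pairs 33 did (55.9%). These are descriptions of 4 libraries, with no test.

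Trichome libraries 4 and 1 were then set side by side. In 12 of 137 members (8.76%) trichome library 4 was at least 4 times library 1 after adding 0.1 CPM to each, against 0.549% of the 16037 genes. Without the added 0.1 CPM there were 13, with Solyc11g063530, and with TMM factors 15 (10.9%, against 0.748%). In 11 members (8.03%) library 1 was at least 4 times library 4, against 5.99%, and with TMM factors in 9 (6.57%, against 3.69%). The first 12 lay in 7 runs and were picked out after their values were seen, so this contrast has no test.

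Solyc11g063500 to Solyc11g063530 was a run of 4 in which every member was lowest in trichome library 1 and highest in library 4. Solyc11g063500 had 81.2, 180.9, 237.5 and 317.7 CPM in trichome libraries 1 to 4 and 11.6, 10.7, 12.2 and 14.0 in leaf. Solyc11g063520 had 31.4, 52.5, 110.5 and 154.7 CPM in trichome and 4.27, 3.12, 3.17 and 5.09 in leaf. In both genes, and in Solyc11g063510, leaf library 4 was also the highest leaf library. Solyc11g063530 was instead highest in leaf library 1 (0.104 CPM) and lowest in leaf library 4 (0.0286). Solyc11g039980 had 9.51, 26.8, 24.8 and 48.3 CPM in trichome and 1.25, 0.824, 1.02 and 1.69 in leaf, and its neighbour Solyc11g039990 had 4.96, 20.7, 18.0 and 33.4 in trichome. Solyc01g058490 had 22.8, 39.6, 66.6 and 176.6 CPM in trichome, and Solyc01g058500 had 14.5, 15.5, 41.2 and 90.6. The IDs on either side of this last pair had no count in any library. By gene totals Solyc11g039990 was highest in leaf library 1 and Solyc01g058490 in leaf library 3. With TMM factors each was highest in leaf library 4.

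Solyc11g027650 had 37.4, 39.8, 100.8 and 192.4 CPM in trichome and 3.49, 3.38, 3.91 and 6.32 in leaf, and Solyc11g027660 had 1.78, 2.24, 5.92 and 13.1 in trichome. Their run mate Solyc11g027670 did otherwise, with 5.68, 1.14, 1.58 and 2.40 CPM. Solyc11g051200 had 184.4, 207.1, 768.0 and 709.7 CPM in trichome and 21.1, 16.5, 22.5 and 35.1 in leaf, and was high in libraries 3 and 4 together; its neighbour Solyc11g051190, not Solyc11g051200, is among the 12. Of the 12 genes, 7 were highest in leaf library 4 among leaf libraries and 0 were lowest there, by gene totals. Over all 16037 genes at 1 to 500 CPM in trichome, leaf library 4 was highest for 10.8% and lowest for 52.3%. With TMM factors these shares of all genes were 27.3% and 28.8%. TAPG1 and TAPG2, among the 12, had no leaf count and so no leaf order. Over all members leaf library 4 was lowest for 76 of 137 (55.5%), near the 52.3% of all genes, with ties given to the library of lower number. The share of counted lines outside genes (no feature) was 9.21%, 10.1%, 12.2% and 13.1% in trichome libraries 1 to 4 and 3.81% to 4.21% in leaf. The share with more than 1 alignment was 4.64%, 4.84%, 5.08% and 6.70% in trichome, and in leaf it was 4.44% in library 4 against 2.87% to 3.10% in the others. Both trichome shares were highest in library 4. Of the 12 genes 9 were highest there too, and the other 3, TAPG1, TAPG2 and Solyc02g083200, in library 3. The 12 were picked for a high library 4 against library 1, which largely fixes that count, so nothing is read from it. The part of these shares in the levels was not tested.

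The opposite pattern, trichome library 1 at least 4 times library 4, was seen in whole runs and in lone members. Solyc03g034390 had 535.6, 228.0, 244.3 and 69.1 CPM in trichome and 7.60, 14.7, 7.11 and 1.09 in leaf, a log2 fold change of 5.38 (SE 0.79). Its neighbour Solyc03g034380 had 103.2, 88.9, 88.5 and 19.7 CPM in trichome and 1.41, 3.30, 2.01 and 0.773 in leaf (log2 5.55, SE 0.54). Collection 4 was lowest in both tissues for both genes. Solyc02g083730 had 4.77, 2.93, 3.77 and 0.152 CPM in trichome, while its neighbour Solyc02g083720 had 172.6, 195.6, 183.4 and 171.2. Of the 11 genes with this pattern, 9 were lowest in leaf library 4 too, as were 52.3% of all 16037 genes at 1 to 500 CPM in trichome. With TMM factors Solyc03g026360, among these 9, was lowest in leaf library 1 instead, and the share of all genes was 28.8%. The summed acylsugar markers were also lowest in collection 4 in both tissues (82.6 CPM in trichome, 0.601 in leaf). Among them a gene listed as IPMS3 (Solyc08g014230) was highest in trichome library 4, at 38.5 CPM against 20.9 to 26.9. ASAT1, ASAT2, ASAT3 (Solyc11g067270) and ASAT4 were lowest there. In leaf, 3 of 5 acylsugar markers were lowest in library 4. Of the gland markers, 4 of 5 were lowest in leaf library 4 too. Those 4 summed to 14.6 CPM in leaf library 4 and 35.7 to 115.8 in the other leaf libraries, and the fifth, MTS1 (Solyc01g105890), was highest there at 62.6 CPM. In trichome library 4 the summed gland markers were not lowest (12442 CPM, against 9292 to 12713 over the trichome libraries). Their part in these members was not tested.

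**Figure D5:**
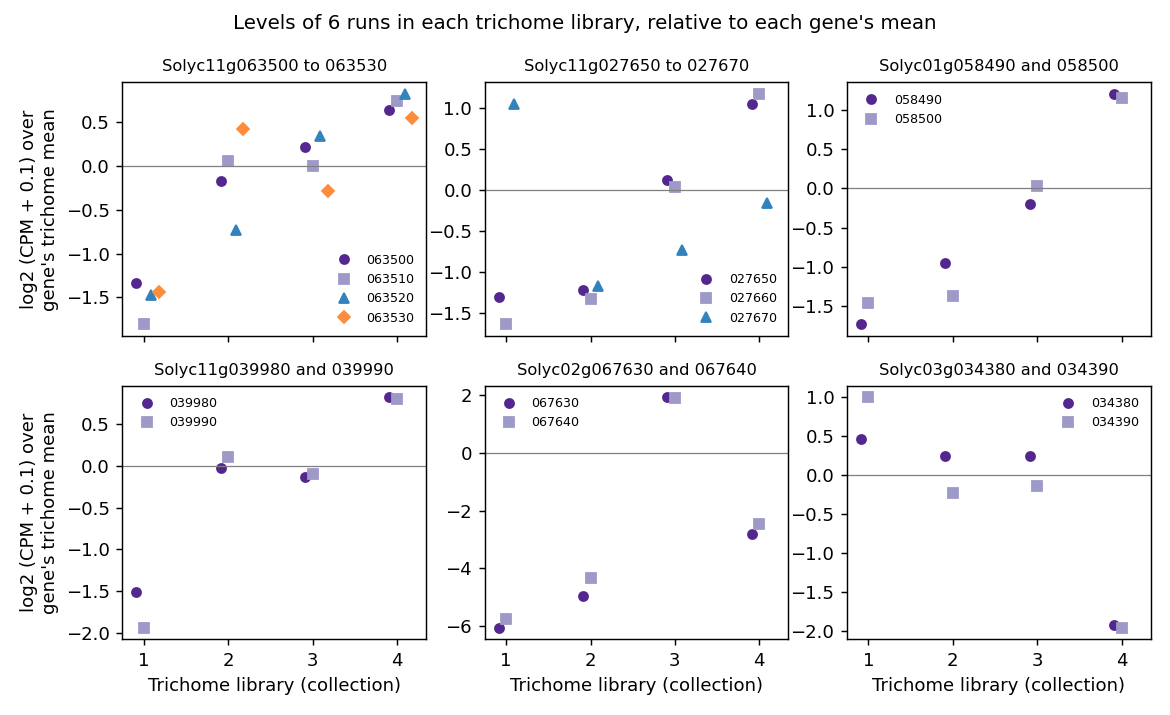
Each panel shows a run; points give log2 of (CPM + 0.1) in each trichome library over that of the gene's trichome mean (y axis) for collections 1 to 4 (x axis), with a colour and shape per gene. Members of the chromosome 11 run Solyc11g063500 to Solyc11g063530 are all highest in library 4, TAPG1 and TAPG2 (Solyc02g067630 and Solyc02g067640) in library 3, and Solyc03g034380 and Solyc03g034390 are lowest in library 4.

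Pairs made up 45 of the 58 runs, and 4 of them are given for their summed trichome CPM, the highest among pairs. Solyc02g084970 had 274.7, 294.6, 253.1 and 357.5 CPM in trichome and 1.67, 2.08, 1.43 and 0.601 in leaf (log2 7.98, SE 0.40). Next to it Solyc02g084980 had 183.7, 309.1, 143.6 and 293.2 CPM in trichome and 2.08 to 3.96 in leaf (log2 6.40, SE 0.46). Both were lowest in trichome library 3. Solyc11g020630 had 204.9, 239.0, 172.3 and 190.7 CPM in trichome and 0.443 to 0.997 in leaf (log2 8.29, SE 0.31), with no overlap between tissues. Its neighbour Solyc11g020640 had 281.3, 245.1, 233.0 and 449.4 CPM in trichome and 1.06 to 2.92 in leaf. The pairs with Solyc11g051200 and with Solyc03g034390, described above, complete these 4.

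Among the pairs with the highest ratio in their lower member, Solyc09g098000 had 38.2, 42.2, 43.7 and 73.3 CPM in trichome and 0.0521 to 0.303 in leaf (log2 8.15, SE 0.50). Solyc09g098010 had 190.4, 262.8, 181.8 and 165.5 CPM in trichome and 0.258 to 2.69 in leaf (log2 7.37, SE 0.58), and the next ID, Solyc09g098030, had 586 CPM in trichome and so exceeded the upper limit. Solyc12g005800 had 68.8, 66.4, 56.2 and 66.7 CPM in trichome and 0.258 to 0.989 in leaf (log2 6.91, SE 0.35). Its partner Solyc12g005810 had 11.1, 17.8, 11.96 and 21.4 CPM in trichome and at most 0.130 in leaf.

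The remaining runs of 3 lay on chromosomes 3, 4, 6, 7 and 9. On chromosome 4, Solyc04g016200 had 352.7, 394.6, 433.7 and 500.6 CPM in trichome and 3.88 to 7.15 in leaf (log2 6.51, SE 0.32), beside Solyc04g016190 with 43.6 ± 11.4 and Solyc04g016180 with 229.0 ± 22.2 CPM in trichome (SD, n = 4 each). On chromosome 9, Solyc09g092620 had 323.1, 480.3, 437.6 and 497.3 CPM in trichome and 0.520 to 2.34 in leaf (log2 8.58, SE 0.56). Its ratio of 301 was the highest among members with 0.1 CPM added to both means, which limits the ratio of genes with almost no leaf counts. Solyc12g088630, with 2 leaf counts in all, had a ratio of 268 so computed and a pooled ratio of 1715 with a counting interval of 474.7 to 14161. The neighbours of Solyc09g092620, namely Solyc09g092600 and Solyc09g092640, had trichome means of 6.57 ± 2.82 and 79.0 ± 18.0 CPM (SD, n = 4 each). On chromosome 6, Solyc06g005780 had 524.9, 428.6, 316.5 and 149.9 CPM in trichome and 6.04, 5.55, 2.45 and 0.744 in leaf (log2 6.82, SE 0.68), so that collection 4 was lowest in both tissues. Its run mates Solyc06g005760 and Solyc06g005770 had 11.6 ± 2.53 and 23.4 ± 3.90 CPM in trichome.

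On chromosome 7, Solyc07g054880 had 145.9, 159.3, 149.2 and 134.7 CPM in trichome and 0.372 to 2.86 in leaf (log2 6.94, SE 0.49). On either side of it Solyc07g054870 had 33.2 ± 6.46 CPM and Solyc07g054890 10.1 ± 2.88 CPM in trichome (SD, n = 4 each). On chromosome 3, Solyc03g122150 had 13.6, 11.1, 14.1 and 9.41 CPM in trichome and 0.208 to 0.434 in leaf (log2 5.51, SE 0.22), and Solyc03g122160 and Solyc03g122170 had log2 fold changes of 5.97 (SE 0.24) and 5.03 (SE 0.33). By gene totals all members of that run were lowest in trichome library 4, and with TMM factors none was. The other chromosome 3 run, Solyc03g117150 to Solyc03g117170, had trichome means of 18.1 ± 10.03, 19.6 ± 4.64 and 4.61 ± 1.18 CPM.

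In leaf, the members' summed level by gene totals was 237.0, 283.8, 188.6 and 171.5 CPM in libraries 1 to 4. In trichome it was 9581, 9563, 9962 and 9635 CPM. The leaf order by gene totals, library 2 highest, then 1, 3 and 4, was also that of 4 of 5 gland markers. TPS12 (Solyc06g059930), for one, had 46.0, 83.8, 22.9 and 7.73 CPM in leaf libraries 1 to 4. With TMM factors (1.12 for leaf library 3 and 0.934 for leaf library 4) TPS12 kept this order. The members' leaf sum did not, as it was then lowest in library 3, and their trichome sum was highest in library 4. The part of the gland markers in the members' leaf levels was not tested. Leaf library 2 was the highest leaf library for 66 of 137 members (48.2%) and library 4 for 13 (9.49%), against 52.2% and 10.8% of all 16037 genes at 1 to 500 CPM in trichome. With TMM factors leaf library 2 was highest for 42.3% of members and 29.1% of all genes, and leaf library 4 lowest for 48.9% and 28.8%. For 40 members the leaf mean lay under 0.156 CPM, the largest limit that a count of 0 allows in a leaf library, and 3 members had no leaf count at all. The third of these, beside TAPG1 and TAPG2, was Solyc10g005390, with 2.50, 1.30, 1.89 and 2.86 CPM in trichome, at least 75.9-fold higher than the floor of 3 counts over the leaf libraries. Its neighbour Solyc10g005380 had 53.6, 63.8, 54.8 and 81.2 CPM in trichome and 0.443 to 0.658 in leaf (log2 6.97, SE 0.33).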

How the data were processed

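The authors deposited raw read counts per gene, 1 file per library. The submitters' processing notes list Trimmomatic, TopHat2, SAMtools and HTSeq and give no version. Genome build, annotation and strand setting: not given in the sources used here. HTSeq's summary lines, 12.7% to 24.4% of counted lines, were left out. CPM, ratios and runs were computed from the counts in Python 3.11.15. The whole table was fitted by quasi-likelihood in edgeR 4.0.16 (R 4.3.3) with TMM factors, filterByExpr, no block, Benjamini-Hochberg adjustment and a threshold of 0.05. A standard error is |log2 fold change| divided by the root of the F statistic. Both steps were tested on simulated data. The members and lists were chosen with earlier results of these data known. Genes in the text are runs of 3 or more, runs with a named member, the 4 pairs with the highest summed level, the 4 with the highest lower ratio, those just inside and outside the limit, and the 2 lists. Others were chosen after their values were seen.

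The choice rule and the fit used unpaired libraries. Both tissues share sampling times 1 to 4 per the labels, so a fit with the replicate block was run as an alternative. Libraries of 1 number deviated from their group means with correlations of 0.0936, 0.156, 0.206 and 0.183, and libraries of different numbers with -0.221 to 0.149. The series text calls the 4 collections independent, and whether they are separate plants is not stated, so p-values measure the spread between collections.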

Additional observations from a re-analysis of the deposited data

Results flagged for a closer look

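Among the 158 groups of 4 libraries with values for a gene of the text, 14 held a library far from the other 3 by Dixon's test (critical value 0.829). Chance gives about 5% of groups only for normally distributed values and independent genes. Neither holds here, so the 14 are not set against that share. In trichome library 3, TAPG1 stood at 92.5 CPM and TAPG2 at 81.0. Trichome library 4 stood apart for Solyc09g098000 (73.3 CPM, high), Solyc03g122160 (13.6, low) and ASAT1 (Solyc12g006330; 0.953, low), and trichome library 2 for Solyc08g006360 (5.41, low). In leaf library 2, ASAT4 (Solyc01g105580) had 0.737 CPM, ASAT2 (Solyc04g012020) 3.73 and Solyc11g007460 0.130, all high. Leaf library 1 was high for Solyc03g122170 (0.260 CPM) and Solyc08g006370 (0.0521), leaf library 3 for Solyc05g046170 (0.0340). Leaf library 4 was high for MTS1 (Solyc01g105890; 62.6 CPM) and low for Solyc04g016180 (6.44). The leaf values of Solyc08g006370 and Solyc05g046170 are 1 count each. For these genes and Solyc11g007460 the other 3 leaf libraries had no count, where any count at all is flagged.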

How the results depend on the processing

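The size of the set follows its limits. With a pseudocount of 1 CPM, 313 genes were marked and 47 lay in 22 runs; with a ratio of 8 these were 917, 260 and 111, and with a ratio of 32 they were 288, 59 and 26. With the replicate block (libraries paired by number, a ratio of 16 within each collection) 331 genes were marked and 64 lay in 27 runs. Leaving out a library or collection gave 533 to 595 marked genes and 133 to 152 genes in 57 to 66 runs, and kept 123 to 134 of the 137 members. The run of 7 became a run of 4 without leaf library 1, 2 or 4, trichome library 2 or collection 2. TMM scaling kept 135. A minimum of 0.5 CPM changed nothing, because the ratio of 16 already needs 1.5 CPM. With RLE scaling, an alternative chosen after seeing the data like TMM here, 62.0% of neighbouring member pairs shared their highest trichome library. In edgeR's fit with the replicate block, 6769 genes were called higher and 7753 lower, against 6925 and 7855, and no list gene lost its call. With library size alone the median of all log2 fold changes moved by -0.22. Leaving out 1 library or collection moved the fold change of 21 of 63 named members by over 1.5 times; none of the named genes reversed. ASAT4 lost its call in 5 such fits and, without collection 2, had too few counts to be tested; ASAT2 lost its call in 2. The leaf mean of 40 members lay under 0.156 CPM, the largest floor of a single leaf library. Over all leaf libraries together, 3 members had no count and 13 had 1 to 3 counts.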
